A study of Mus musculus with 4 samples.

Results

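Cholesterol synthesis and lipogenesis were followed through 30 genes, chosen by name: 18 enzymes of the mevalonate and sterol route, 5 genes of SREBP control, 6 enzymes of fatty acid synthesis and the sterol carrier Stard4. All 30 were among the 14185 genes tested, of 35580 genes with matched transcripts. Bulk RNA sequencing compared cells with and without Mmp3, which encodes a matrix metalloproteinase, from the stromal vascular fraction (the cells of fat other than adipocytes) of mouse subcutaneous adipose tissue. Each group had 2 libraries, labelled Set1 and Set2 and called replicates 1 and 2 here. All were wild-type C57BL/6, and no treatment was named for either group. The labels give no age, sex or pooling and describe the separation of the cells only by a reagent code. Nothing says that replicates came from separate animals, so the p-values cover a spread that may be technical. In bulk RNA, fewer cells of a type and less RNA per cell cannot be told apart.

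Cells make cholesterol from acetyl-CoA through mevalonate, isoprenoids, squalene and lanosterol. SREBP-2, from Srebf2, drives transcription of the enzymes of this route, while SREBP-1, from Srebf1, mainly drives fatty acid synthesis. Scap escorts both precursors from the endoplasmic reticulum to the Golgi for cleavage when sterols are low, and Insig1 and Insig2 retain Scap when sterols are plentiful. Lipogenic enzymes are abundant in adipocytes, while growing cells of many kinds use the sterol route.

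SREBP binds sterol regulatory elements next to sites for NF-Y and Sp1, so promoter sequences are shown for genes described below. RefSeq promoter windows on GRCm38.p6, from 250 bases before to 50 after a start site, were matched for 24 of the 30 genes, in 32 windows. The 150 bases before the start are given for 6 genes from the mevalonate, SREBP and fatty acid groups, with 2 start sites of Srebf1. Capitals mark exact matches, on either strand, to TCACNCCAC (the sterol element core), CCAAT (NF-Y), CACGTG (E-box) or GGGCGG (Sp1).
Hmgcs1, chr13:119690201-119690350, plus strand: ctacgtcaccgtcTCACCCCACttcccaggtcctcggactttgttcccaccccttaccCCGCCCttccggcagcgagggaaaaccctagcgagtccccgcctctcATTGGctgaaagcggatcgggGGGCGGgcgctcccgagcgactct
Mvk, chr5:114444119-114444268, plus strand: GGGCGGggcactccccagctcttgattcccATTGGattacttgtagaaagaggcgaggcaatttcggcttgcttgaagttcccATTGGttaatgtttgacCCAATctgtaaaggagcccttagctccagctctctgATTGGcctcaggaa
Srebf2, chr15:82147119-82147268, plus strand: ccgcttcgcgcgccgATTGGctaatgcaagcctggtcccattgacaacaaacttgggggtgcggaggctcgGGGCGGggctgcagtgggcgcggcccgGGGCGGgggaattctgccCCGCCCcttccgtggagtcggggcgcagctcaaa
Srebf1, chr11:60220628-60220777, minus strand: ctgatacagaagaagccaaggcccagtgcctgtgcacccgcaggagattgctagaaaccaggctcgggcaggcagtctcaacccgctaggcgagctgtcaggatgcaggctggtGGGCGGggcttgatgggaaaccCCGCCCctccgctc
Srebf1, chr11:60210472-60210621, minus strand: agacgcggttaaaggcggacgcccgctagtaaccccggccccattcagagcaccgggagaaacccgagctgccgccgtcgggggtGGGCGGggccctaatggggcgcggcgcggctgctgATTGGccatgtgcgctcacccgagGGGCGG
Fasn, chr11:120824548-120824697, minus strand: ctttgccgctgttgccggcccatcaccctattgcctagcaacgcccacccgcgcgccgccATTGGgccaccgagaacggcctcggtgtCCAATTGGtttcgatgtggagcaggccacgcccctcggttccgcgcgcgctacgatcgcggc
Elovl6, chr3:129532236-129532385, plus strand: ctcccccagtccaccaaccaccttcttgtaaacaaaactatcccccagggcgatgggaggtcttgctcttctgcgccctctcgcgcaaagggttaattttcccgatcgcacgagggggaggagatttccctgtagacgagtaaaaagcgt
The Hmgcs1 stretch holds the sterol element core, at position -137 from the start, together with NF-Y and Sp1 letters. In the Fasn stretch 2 CCAAT matches on opposite strands overlap, and the Elovl6 stretch holds no match. The core was in 1 of the 32 windows and in 1.24% of all 32851 windows. CCAAT was in 21 of 32 windows, against 37.4% of all. GGGCGG was in 24, against 35.7%, and CACGTG in 6, against 7.15%. The windows of these genes had a median GC content of 61.8% against 52.7% for all windows, and its part in the counts was not tested. These matches are letters, not measured binding.

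No gene of the 30 passed the test (edgeR, adjusted p under 0.05), where 0.0211% of all genes did: 0.00705% higher and 0.0141% lower in Mmp3-positive cells, or 1 and 2 genes. At an unadjusted edgeR p under 0.05 there were 2 on the higher side, Scd2 and Srebf2, against 5.62% of all genes, and 1 on the lower side, Insig2, against 3.25%. In either direction the background was 8.87%. DESeq2, a second count test, called 3 higher (Sqle, Srebf2 and Scd2), beside 5.46% of all genes, and 1 lower (Insig2), beside 4.18%. With 2 libraries against 2, the exact two-sided permutation test of a single value cannot go below 0.333.

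Levels are given as CPM, counts scaled to library size after TMM normalization. In each set of 4 values, Mmp3-negative replicates 1 and 2 come first and Mmp3-positive replicates 1 and 2 follow. Both Mmp3-positive libraries were above both Mmp3-negative ones for 9 of the 30 genes, against 22.5% of all genes, and below them for 3, against 17.3%. In TPM, a level per transcript length, the counts were 8 against 25.9% and 4 against 10.9%. The median log2 fold change was 0.08, against 0.02 over all genes tested. Placing Insig2 at its bound, given below, leaves it the lowest of the 30, so this median could not change. Read against these backgrounds, the counts show nothing particular to the 30 genes. The summed level of the 30 genes was 2019 and 2028 against 2298 and 2350 CPM, without overlap. Per length it overlapped, at 658.7 and 1376 against 1219 and 1177 TPM, with the highest library Mmp3-negative. Of the CPM sum, Fasn alone held 644.7 and 710.3 against 759.3 and 782.6 CPM. The 18 enzymes of the mevalonate and sterol route summed to 248.8 and 213.2 against 229.3 and 249.4 CPM, which overlapped.

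**Figure D1:**
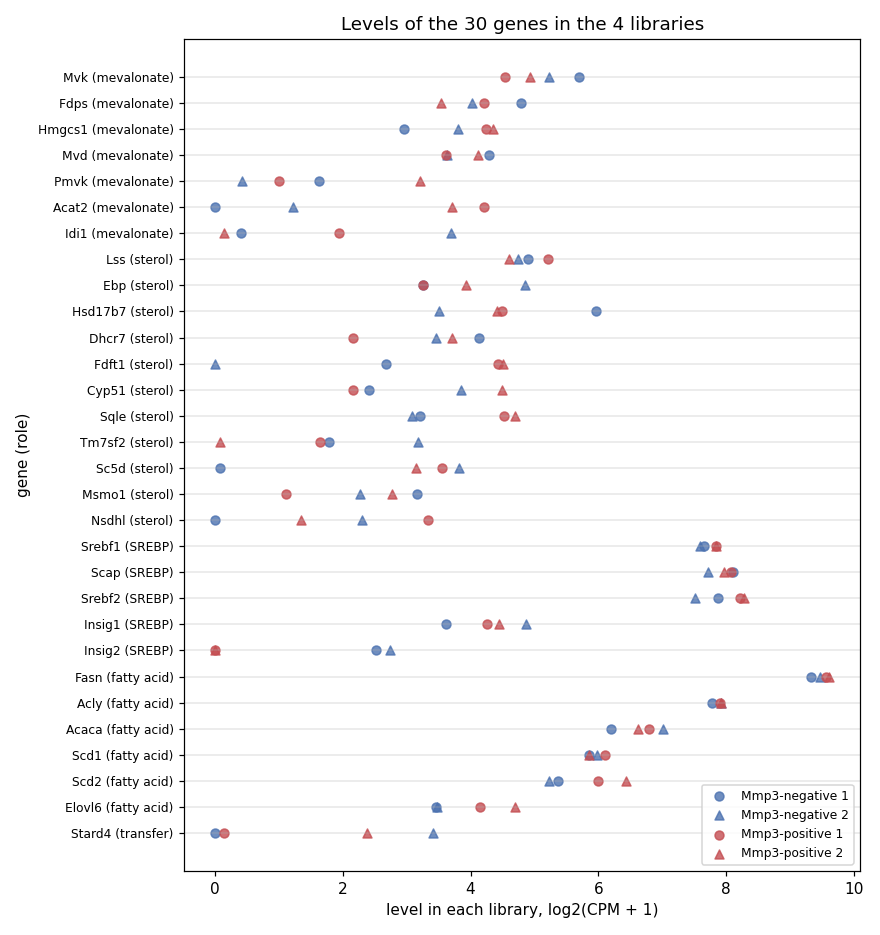
Level of each of the 30 genes in the 4 libraries, as log2(CPM + 1), by role and by mean TPM within the role. Blue points are Mmp3-negative and red points Mmp3-positive libraries, circles replicate 1 and triangles replicate 2. Srebf1, Srebf2, Scap, Acly and Fasn lie at the right with their 4 libraries close together, and many sterol enzymes lie further left and scatter.

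The libraries held between 17693755 and 20286221 estimated counts. Mmp3 stood at 106.2 and 130.5 against 4161 and 3409 CPM, in the direction of the labels. Markers of several other cell types were lower in the Mmp3-positive libraries. Counts without overlap below are over the markers tested, beside 17.3% lower and 22.5% higher among all genes. The summed level of 8 pericyte and smooth muscle markers was 722.8 and 590.1 against 98.2 and 93.98 CPM, with 6 not overlapping and lower. It was 249.2 and 117.1 against 31.8 and 28.5 CPM for 10 macrophage markers (5 not overlapping and lower), 240.5 and 172.9 against 101.3 and 96.3 CPM for 8 endothelial markers (4) and 154.1 and 55.4 against 7.21 and 2.19 CPM for 4 antigen presentation markers (4). Of 10 stromal fibroblast markers, 6 were higher without overlap. Their summed level overlapped between the groups, at 20790 and 30242 against 28730 and 36511 CPM. Of 5 epithelial markers, all had 0 counts in the Mmp3-positive libraries. Their summed level in the Mmp3-negative libraries was also low, at 7.50 and 7.32 CPM. Of the 5, 2 had 0 counts in every library and 1 was tested. Of the T cell and Schwann markers, 1 and 3 were tested, and 0 were without overlap. The part of this makeup in the values below was not tested.

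Of the adipocyte markers, some were at 0 and others were not. Cidec, Lep and Pck1 had 0 counts in every library, and Adipoq, which encodes adiponectin, stood at 0 and 0 against 2.63 and 0 CPM. Plin1, a lipid droplet coat protein, stood at 9.06 and 20.8 against 8.84 and 9.27 CPM. The summed level of 9 adipocyte markers was 135.1 and 190.5 against 73.1 and 94.9 CPM, of which Plin4 held 123.5 and 169.6 against 61.5 and 83.8 CPM.

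Genes of SREBP control were among the most abundant of the 30. By mean TPM over the 4 libraries the order began with Fasn (239.4), Srebf1 (227.7), Scap (130.7), Acly (130.3) and Srebf2 (69.9). The ranges of neighbours in this order overlapped, with Srebf1 alone running from 140.8 to 339.5 TPM. Insig1 had a mean of 12.4 TPM and Insig2 of 9.24 TPM.

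Srebf2 stood at 234.03 and 181.7 against 296.6 and 309.4 CPM. The groups did not overlap, and the Mmp3-positive pair was the closer one. The log2 fold change was 0.54 with a standard error of 0.19 (edgeR unadjusted p = 0.0332, adjusted p = 0.480), a fold of 1.46. With an offset for average transcript length it was 0.17 (edgeR adjusted p = 0.994), and DESeq2 gave 0.50 (adjusted p = 0.0465). The gene lies on chromosome 15 of GRCm38 from 82147181 to 82205379, and the transcript Srebf2-201 led in every library.

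Srebf1 stood at 200.8 and 191.6 against 229.4 and 229.3 CPM. The groups did not overlap, with a log2 fold change of 0.22 and a standard error of 0.17 (edgeR adjusted p = 0.913). Per length the direction was not kept: the values were 140.8 and 339.5 against 226.2 and 204.4 TPM, and with the length offset the log2 fold change was -0.29. Scap ranged from 209.2 to 275.2 CPM with overlapping groups and a log2 fold change of 0.10.

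Of the INSIG genes, which retain the SREBP complex, Insig1 is itself an SREBP target. It ranged from 11.2 to 28.3 CPM, both ends in the Mmp3-negative pair, with a log2 fold change of -0.02. Insig2 had 88 and 99 against 0 and 0 estimated counts. Both Mmp3-positive libraries were at 0, and a floor of 3 counts per library gave a bound of at least 33.7-fold lower. This bound holds only if a 0 stands for a level under the floor. In other genes a 0 stood beside a replicate well above it. Within the Mmp3-negative pair, Stard4 had 0 and 168 counts and Fdft1 100 and 0. The size of the Insig2 fold is therefore uncertain. Insig2 did not pass (edgeR unadjusted p = 0.0226, adjusted p = 0.480). DESeq2 gave an adjusted p of 0.00363. All of the Insig2 counts fell on Insig2-207, a transcript of 471 bases and 1 of 14 listed, and the others had 0 counts in every library.

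**Figure D2:**
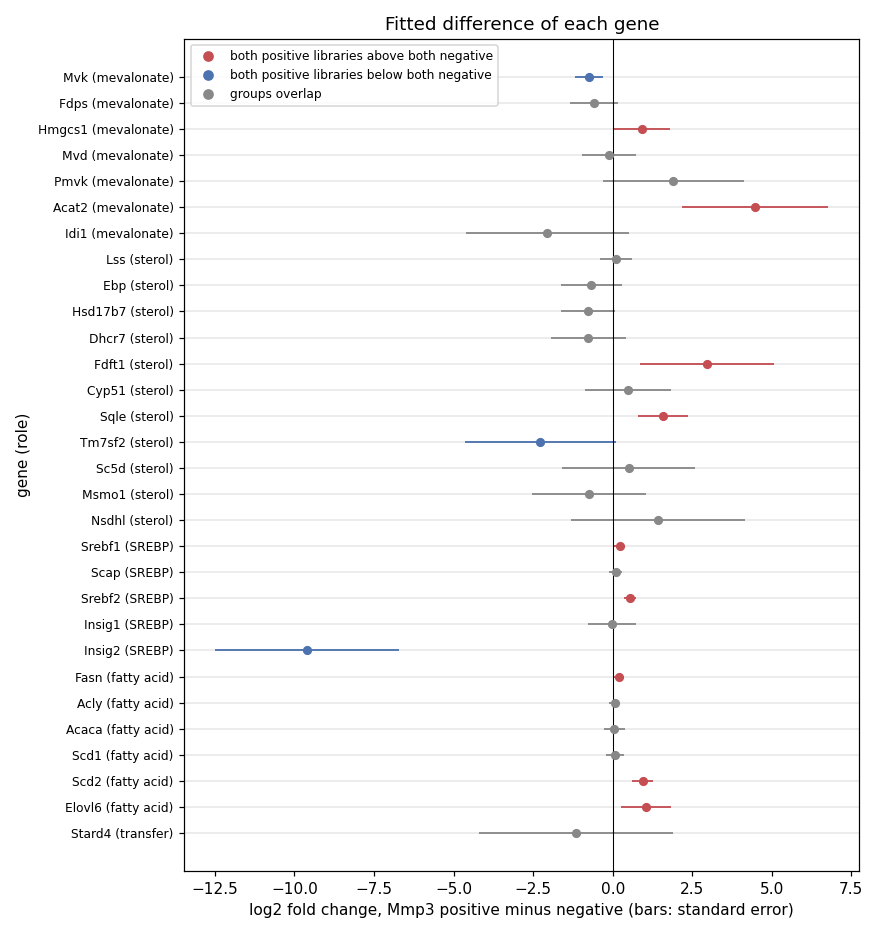
Fitted log2 fold change of each gene, Mmp3 positive minus negative, with its standard error as a bar. Red marks the 9 genes with both Mmp3-positive libraries above both Mmp3-negative ones, blue the 3 below and grey the overlapping ones. Abundant genes such as Fasn and Acly have short bars near 0, and Insig2 lies at -9.61, a fitted value that depends on how libraries at 0 are treated.

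Every gene of fatty acid synthesis had a log2 fold change above 0 in the count fit without an offset, but with the length offset Acaca and Acly were at -0.15 and -0.14. Without Mmp3-negative replicate 1 these were -0.31 and -0.014, and without Mmp3-positive replicate 1 Acaca and Scd1 were -0.049 and -0.068. The 6 values ran from 0.05 to 1.06 with a median of 0.13, and none passed the test; 51.1% of all genes were above 0. In 3 of the 6, Fasn, Scd2 and Elovl6, the groups did not overlap, against 22.5% of all genes on this side. The summed level was 1044 and 1188 against 1255 and 1288 CPM, without overlap, and 236.6 and 547.2 against 506.5 and 491.99 TPM, where the highest library was Mmp3-negative.

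Fasn, which builds palmitate, stood at 644.7 and 710.3 against 759.3 and 782.6 CPM. Both Mmp3-positive libraries were higher, by a small step: the log2 fold change was 0.19 with a standard error of 0.14 (edgeR adjusted p = 0.915). The TPM values were 129.7 and 259.6 against 306.6 and 261.7, also without overlap. Acly, which makes cytosolic acetyl-CoA from citrate, ranged from 219.6 to 241.02 CPM. Acaca, an acetyl-CoA carboxylase, ranged from 72.5 to 128.5 CPM. Their log2 fold changes were 0.06 and 0.05, and their groups overlapped.

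The stearoyl-CoA desaturases place a double bond in saturated fatty acids. Scd2 stood at 40.5 and 36.7 against 62.5 and 85.8 CPM. The groups did not overlap, and the log2 fold change was 0.94 with a standard error of 0.32 (edgeR unadjusted p = 0.0278, adjusted p = 0.480), a fold of 1.92. DESeq2 gave 0.90 (adjusted p = 0.0349). Scd1 stood at 57.1 and 61.8 against 67.997 and 56.7 CPM, with overlapping groups and a log2 fold change of 0.07. The difference between the fold changes of Scd1 and Scd2 was not tested, and since related genes can share reads the split between them is uncertain. Elovl6, which extends palmitate to stearate, stood at 10.03 and 10.1 against 16.8 and 25.05 CPM. The Mmp3-negative libraries were nearly equal and both lower, with a log2 fold change of 1.06 and a standard error of 0.79 (edgeR adjusted p = 0.913). With the length offset it was 2.35 (edgeR adjusted p = 0.602).

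The mevalonate and isoprenoid genes lay on both sides. Of the 7, 3 had a log2 fold change above 0 and 4 below, with a median of -0.11. Their summed level, 105.1 and 89.6 against 90.3 and 96.4 CPM, overlapped between the groups. The summed TPM, 77.98 and 87.9 against 91.8 and 94.8, was higher in both Mmp3-positive libraries. In TPM, 25.9% of all genes were higher and 10.9% lower without overlap. The summed TPM of all genes tested was lowest in Mmp3-negative replicate 1, at 826139 and 957464 against 937416 and 912826. Without overlap, Acat2 and Hmgcs1 were higher and Mvk lower, beside 22.5% higher and 17.3% lower among all genes.

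Acat2, the cytosolic thiolase at the head of the route, had 0 and 23 against 333 and 238 counts, or 0 and 1.33 against 17.5 and 12.1 CPM. Both Mmp3-negative libraries were near or at 0 and both Mmp3-positive ones well above them. The log2 fold change was 4.47 with a standard error of 2.31 (edgeR adjusted p = 0.725). Without Mmp3-negative replicate 2, which leaves the library at 0 alone in its group, it was 11.14 and called (edgeR adjusted p = 0.0258), in a fit that called 1.45% of all genes higher. Without Mmp3-negative replicate 1 it was 3.47 (edgeR adjusted p = 0.178).

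Hmgcs1, the cytosolic HMG-CoA synthase whose promoter stretch held the sterol element core, stood at 6.74 and 13.03 against 17.9 and 19.3 CPM. The groups did not overlap in CPM (log2 fold change 0.91 ± 0.87 SE, edgeR adjusted p = 0.966). In TPM they did, at 1.65 and 21.2 against 27.7 and 8.52. Mvk, mevalonate kinase and the most abundant of the 7 by TPM, lay the other way at 50.9 and 36.3 against 22.3 and 29.6 CPM. Both Mmp3-positive libraries were lower, also in TPM (42.01 and 33.4 against 20.04 and 22.1). The log2 fold change was -0.75 with a standard error of 0.44 (edgeR adjusted p = 0.802).

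The other 4 genes overlapped between the groups. Mvd, the mevalonate diphosphate decarboxylase, ranged from 11.3 to 18.5 CPM, and Fdps, farnesyl diphosphate synthase, from 10.6 to 26.6 CPM. Pmvk, phosphomevalonate kinase, ranged from 0.346 to 8.25 CPM. Idi1, an isopentenyl diphosphate isomerase, ranged from 0.102 to 11.99 CPM.

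The 11 squalene and sterol enzymes also lay on both sides, 6 above 0 and 5 below, with a median log2 fold change of 0.12. Fdft1 and Sqle were higher and Tm7sf2 lower without overlap, beside 22.5% higher and 17.3% lower among all genes. The summed level was 143.6 and 123.6 against 138.9 and 153.04 CPM, which overlapped. The summed TPM, 80.1 and 112.7 against 137.8 and 141.5, was higher in both Mmp3-positive libraries. As for the mevalonate genes, this stands beside 25.9% of all genes higher and 10.9% lower in TPM without overlap.

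Sqle, squalene epoxidase, catalyses the first oxygen-requiring step of the route. It stood at 8.20 and 7.50 against 22.1 and 24.9 CPM. Replicates were close in both groups, and the groups did not overlap, also in TPM (2.38 and 4.01 against 11.6 and 11.1). The log2 fold change was 1.58 with a standard error of 0.78 (edgeR unadjusted p = 0.0908, adjusted p = 0.689), a fold of 2.99. DESeq2 gave 1.54 (adjusted p = 0.0293). Leaving out each library in turn gave values between 1.49 and 1.66.

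Fdft1, squalene synthase, which commits farnesyl diphosphate to sterols, had 100 and 0 against 391 and 426 counts, or 5.39 and 0 against 20.6 and 21.7 CPM. The Mmp3-positive pair was close and the Mmp3-negative pair was not. The log2 fold change was 2.97 with a standard error of 2.11 (edgeR adjusted p = 0.895). Without Mmp3-negative replicate 1, which leaves the library at 0 alone, it was 11.62 and called (edgeR adjusted p = 0.00700), in a fit that called 1.44% of all genes higher. Without Mmp3-negative replicate 2 it was 1.97 (edgeR adjusted p = 0.240).

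Lss, lanosterol synthase and the most abundant of the 11 by TPM, stood at 28.9 and 25.7 against 36.2 and 23.2 CPM. The groups overlapped, with a log2 fold change of 0.12. In TPM they did not, at 23.2 and 7.54 against 40.8 and 24.9. Tm7sf2, a sterol reductase, had 45 and 139 against 40 and 1 counts. The groups did not overlap, yet the gap between them was smaller than that within either pair (log2 fold change -2.27 ± 2.39 SE, edgeR adjusted p = 0.985).

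The other 8 sterol enzymes overlapped in CPM. Hsd17b7, a keto-reductase of the demethylation steps, stood at 61.2 and 10.4 against 21.5 and 20.4 CPM, so its high value came from a single Mmp3-negative library. Sc5d, a sterol desaturase, had 1 and 228 against 205 and 154 counts, with the low value in the same library. Cyp51, the lanosterol demethylase, ranged from 3.47 to 21.4 CPM. Msmo1 and Nsdhl, which act with Hsd17b7, ranged from 1.16 to 7.98 CPM and from 0 to 9.05 CPM. The isomerase Ebp ranged from 8.52 to 27.7 CPM and the reductase Dhcr7 from 3.47 to 16.6 CPM.

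Stard4, which carries cholesterol between membranes, had 0 and 168 against 2 and 83 counts. Replicate 1 was at or near 0 and replicate 2 higher in both groups (log2 fold change -1.16 ± 3.05 SE, edgeR adjusted p = 0.999).

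The spread between replicates followed the level. For the 9 genes with an average log2 CPM of 5 or more, the median absolute difference between replicates on the log2(CPM + 1) scale was 0.14 between Mmp3-negative libraries and 0.11 between Mmp3-positive ones. All 5310 genes of that level gave 0.41 and 0.25. For the other 21 the medians were 1.22 and 0.62, beside 1.15 and 0.71 over 8875 genes. The 9 were Srebf1, Srebf2, Scap, Mvk, Fasn, Acly, Acaca, Scd1 and Scd2. In 5 of the 30 genes (Acat2, Fdft1, Nsdhl, Insig2 and Stard4) at least 1 library had 0 counts, where 21.7% of all genes did.

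**Figure D3:**
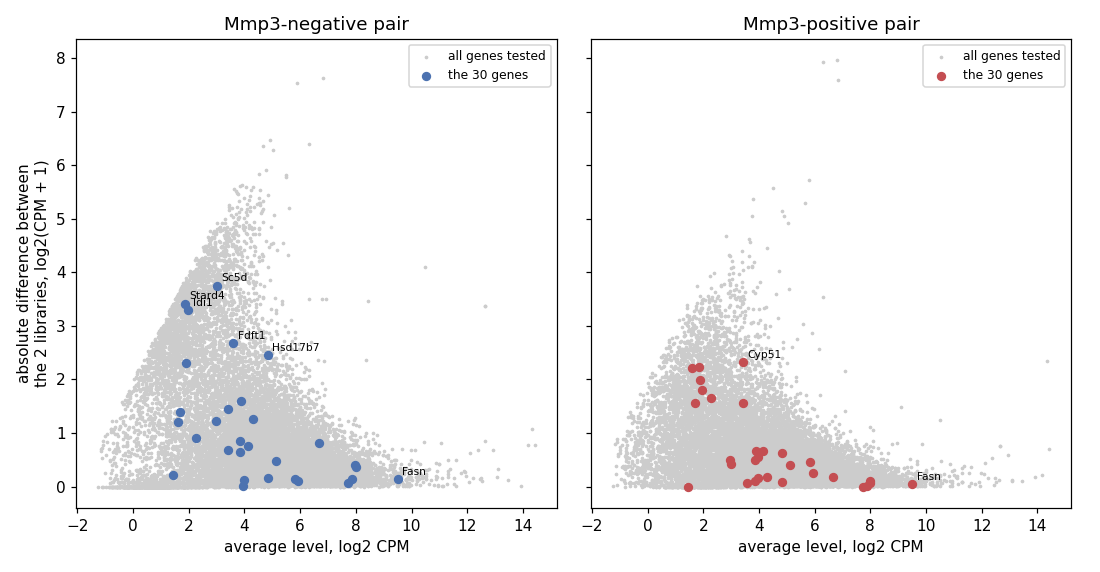
Absolute difference between the 2 libraries of a group, on the log2(CPM + 1) scale, against the average level in log2 CPM, for the Mmp3-negative pair (left) and the Mmp3-positive pair (right). Grey points are all 14185 genes tested and coloured points the 30 genes. Sc5d, Stard4 and Idi1 differ most in the Mmp3-negative pair, and Fasn lies near 0 in both.

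The deposited values are per transcript and show on which forms the counts fell. The same transcript led in all 4 libraries for 9 genes: Srebf1, Srebf2, Scap, Insig1, Acaca, Scd1, Scd2, Elovl6 and Idi1. In 18 genes the leading transcript differed between libraries. Sqle-201 led in Mmp3-negative replicate 1 (147.9 counts) and Mmp3-positive replicate 2 (489 counts), and Sqle-202 in the other libraries (130 and 416.9 counts). The sum of the forms separated the groups, and neither form alone did. Acly-207 had 0 and under 1 against 2132 and 1806 counts and Acly-201 2450 and 0 against 0 and 0, while the sum over all Acly forms overlapped between the groups. The division among overlapping forms is an estimate.

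Transcripts not annotated as protein-coding held over 20% of the summed count in 10 genes. The share was 87.8% for Stard4, 69.3% for Msmo1, 52.7% for Ebp, 41.3% for Lss and 39.04% for Fdft1. The protein-coding form Fdft1-201 had 99.9 and 0 against 290 and 168.9 counts, which did not overlap either. Over protein-coding transcripts alone the log2 fold change was 2.10 for Fdft1 and 0.67 for Lss. All Tm7sf2 counts of the Mmp3-positive libraries fell on Tm7sf2-211, a form with a retained intron.

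**Figure D4:**
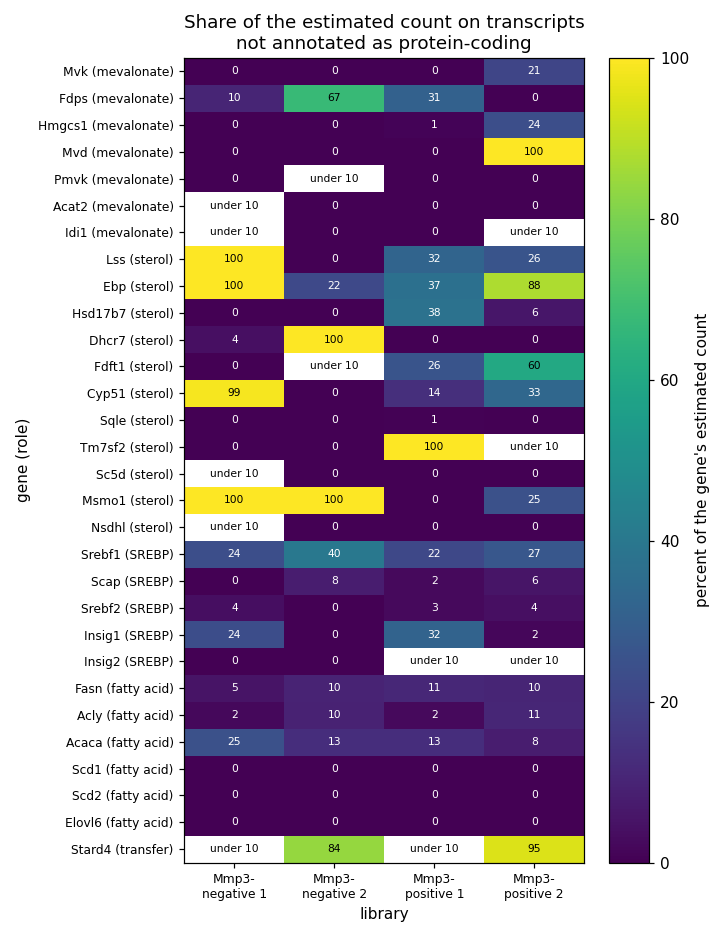
Percent of each gene's estimated count on transcripts not annotated as protein-coding, in each library. White cells had under 10 counts. The share is 0 in all libraries for Scd1, Scd2 and Elovl6, and for Lss and Dhcr7 it runs from near 0 to 100 between libraries.

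Srebf1 has alternative first exons, known to give SREBP-1a and SREBP-1c, and transcripts near both start sites shown above were counted. Srebf1-201, which begins at 60220604 on the minus strand of chromosome 11, held 1656 and 1990 against 3036 and 2570 counts, or 44.5 and 59.9 against 69.6 and 57.1% of the gene's count. These shares overlapped between the groups. Srebf1-207, which begins at 60210465, held 1169 and 0 against under 1 and 523.2 counts, so it was seen in 1 library of each group. Srebf1-208, a processed transcript that begins nearby at 60210392, held 0 and 220.05 against 0 and 358.1 counts. Srebf1-204, a processed transcript of 367 bases from a start at 60222581, held 270.5 and 433.8 against 266.4 and 79.7 counts. Short forms weigh more per length: Srebf1-204 gave 166.01 of the 339.5 TPM of the gene in Mmp3-negative replicate 2.

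**Figure D5:**
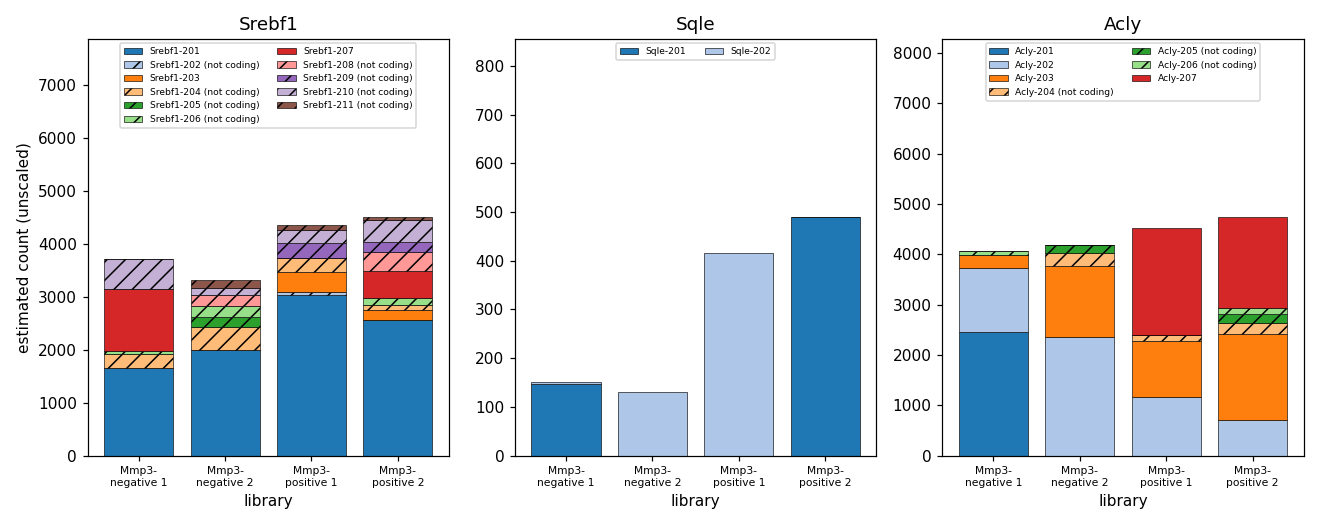
Estimated counts of the transcripts of Srebf1, Sqle and Acly in each library, stacked and not scaled for depth. Hatching marks forms not annotated as protein-coding. Srebf1-201 is the largest block of Srebf1 in every library, and Sqle and Acly change their leading form between libraries.

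In 7 of the 30 genes another annotated gene overlaps the locus, on the opposite strand in 5, and the strand setting of the authors' quantification is not given in the sources used here. Fdft1 shares 774 bases with Ctsb, which encodes cathepsin B, on the opposite strand. Ctsb stood at 646.7 and 618.7 against 610.2 and 688.9 CPM, with overlapping groups, unlike Fdft1. Mvd is overlapped by Gm20388 on the opposite strand, at 20.4 and 243.7 against 57.7 and 114.5 CPM.

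Other genes of the pathway were read from 4 lists, and none passed the test. Counts without overlap in them can be read against 22.5% higher and 17.3% lower among all genes. Of 5 other sterol enzymes, 1 was higher and 1 lower without overlap. The higher one was Acat1, the mitochondrial thiolase, at 20.1 and 18.8 against 23.3 and 27.5 CPM. The lower one was Ebpl, related to Ebp, at 23.04 and 29.98 against 13.8 and 16.3 CPM. In TPM the groups overlapped for Acat1 and Ebpl alike. Of 10 genes of SREBP processing and its partners, 2 were higher and 2 lower. Paqr3, a Golgi protein that binds the Scap complex, stood at 8.90 and 0 against 26.3 and 23.9 CPM. The NF-Y subunits lay on both sides, Nfya at 15.9 and 15.7 against 21.5 and 28.4 CPM and Nfyb at 19.4 and 8.88 against 5.42 and 7.33 CPM. In TPM the groups overlapped for Nfya but not for Nfyb or Paqr3.

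Of 18 further genes of fatty acid synthesis and its supply, 16 were tested. In 6 the groups did not overlap and were higher, in 1 lower, beside the same 22.5% and 17.3% of all genes, with a median log2 fold change of 0.44. Acss2, which makes acetyl-CoA from acetate, stood at 26.2 and 2.59 against 31.9 and 34.4 CPM. Me1, the malic enzyme that yields NADPH, stood at 13.6 and 6.86 against 25.8 and 16.2 CPM. In TPM the groups overlapped for Me1 but not for Acss2. The list then had 7 higher and 1 lower without overlap, beside 25.9% and 10.9% of all genes. Mid1ip1, which activates acetyl-CoA carboxylase, was the lower one at 55.6 and 34.8 against 10.2 and 22.3 CPM (log2 fold change -1.47, edgeR unadjusted p = 0.0490, adjusted p = 0.556). Its relative Thrsp, a lipogenic gene of liver and fat, had 0 counts in all 4 libraries.

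Of 13 genes of oxysterols, LXR and sterol transfer, 3 were higher and 4 lower without overlap. Cyp27a1, a sterol hydroxylase, stood at 17.2 and 12.3 against 0 and 2.85 CPM. Stard5, a sterol carrier, stood at 43.9 and 15.97 against 15.8 and 4.89 CPM, and Mylip, an LXR target, at 46.1 and 19.8 against 17.1 and 16.1 CPM. These 3 were lower in the Mmp3-positive libraries. So were the summed pericyte and smooth muscle, macrophage, endothelial and antigen presentation markers given above, whose part in these values was not tested. The remaining lower one was the LXR gene Nr1h2, at 128.7 and 157.4 against 121.05 and 116.2 CPM. The higher ones were Npc2, Nr1h3 and Abca1. Npc2, which carries cholesterol out of lysosomes, stood at 362.9 and 347.2 against 534.1 and 452.2 CPM and was the gene of this list at an unadjusted edgeR p under 0.05 (0.0285, adjusted p = 0.480). Nr1h3, which encodes LXR alpha, stood at 27.4 and 17.99 against 47.5 and 33.7 CPM. The LXR target Abca1, a cholesterol exporter, stood at 277.7 and 178.7 against 294.5 and 278.7 CPM. In TPM the groups overlapped for Stard5, Nr1h2, Nr1h3 and Abca1. Stard5 stood at 42.1 and 20.1 against 30.5 and 7.90 TPM, and Nr1h3 at 20.02 and 73.01 against 43.7 and 23.3.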

How the data were processed

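Per the labels' protocols, total RNA was taken with an RNeasy FFPE kit, and ribosomal RNA was depleted before strand-specific libraries were made. Per the submitters' processing notes, the authors used kallisto 0.45.0 and GRCm38. Per the file headers, each deposited table lists 115270 transcripts with the estimated count, the TPM and an effective length in bases. Other settings are not given in the sources used here.

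Identifiers were matched to GENCODE M21 (113580 matched). The 1690 unmatched transcripts held 0.729% to 2.08% of a library's counts and were left out. The estimated counts were added up by gene and rounded to whole numbers. Genes were filtered with filterByExpr (minimum count 10), scaled by TMM and tested with edgeR 4.0.16 in R 4.3.3 (quasi-likelihood test, two-sided, no covariate, Benjamini-Hochberg over all genes, threshold 0.05, 2 residual degrees of freedom). Standard errors were derived from the F statistic. Alternatives used DESeq2 1.42.0, limma 3.58.1 on log2(TPM + 1) and the settings of the closing section. The tests were tried on simulated counts.

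Every library's value is given for the most abundant gene of each role, for genes at an unadjusted p under 0.05 and for non-overlapping groups with a log2 fold change of at least 0.5 either way. Other pathway genes are named where they do not overlap and the log2 fold change is at least 0.5 either way, up to 3 a list by size. Library values of Scd1, Hsd17b7, Sc5d, Ctsb, Gm20388, Thrsp, Acat1, Npc2, Nr1h2, Nr1h3 and Abca1 were picked after their values were seen. So were those of Lep, Pck1 and Plin4, and the transcripts named. The 30 genes and the lists were chosen with earlier results of these data known. From the lists, 1 gene is not analysed here, and protein sequences were not used here.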

Additional observations from a re-analysis of the deposited data

How the results depend on the processing

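The fold changes of the 14 genes chosen by the rule for library values kept their direction and their side of the threshold in 168 of the alternative fits, passed it in 6 and reversed in 7. All reversals were in values that had not passed: Srebf1 was -0.29 with the length offset and -0.025, -0.024 and -0.025 with limma on log2(TPM + 1), log2(TPM + 0.1) and without a filter. Leaving out each library in turn, Lss lay between -0.24 and 0.40 and Stard4 between -5.44 and 8.38. Outside these 14, Acaca, Acly and Scd1 also changed sign, at the values given with fatty acid synthesis. The cause was not tested.

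Of the 30 genes, DESeq2 called 3 higher and 1 lower. Leaving out each library gave 0 to 1 called higher and 0 lower. The other alternatives called 0. Over all genes, 1 higher and 2 lower became 4 and 23 without the count filter, 775 and 593 with DESeq2, 1 and 0 with the length offset, and 1 and 0 over protein-coding transcripts. Leaving out each library gave 1 to 237 higher and 1 to 116 lower, with the spread of a lone library taken from the other group. The limma fits called 0 and 0, with 1095, 1224 and 1309 genes at an unadjusted p under 0.05. The members' median log2 fold change was 0.47, 0.50 and 0.47 in those fits, where the median of all genes was 0.29, 0.37 and 0.24. It lay between 0.0525 and 0.40 on leaving out each library, highest without Mmp3-negative replicate 2. With the length offset, 6 genes were higher and 5 lower without overlap. That count was not run with a library left out, and Stard4 has no value over protein-coding transcripts.

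The set numbers were also fitted as a replicate block. Over all genes tested, the deviations of Mmp3-negative and Mmp3-positive replicate 1 from their group means had a correlation of 0.026. With 2 libraries a group, replicate 2 gives the same value and adds nothing. The labels do not say what the numbers share, and they were not taken as a pairing. The block called 1 gene higher and 4 lower, 0 of the 30, and gave Stard4 a log2 fold change of 0.70.

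Most less abundant sterol enzymes varied widely between replicates. Exceptions included Sqle and, with groups that overlapped in CPM, Lss and Mvd. With 2 libraries a group and 2 residual degrees of freedom, a p that missed the threshold does not show equal levels.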
